A study of Homo sapiens with 9 samples.

Results

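The heat shock response is the cell's answer to unfolded protein. Heat shock factor 1 (HSF1) is its main transcription factor: on stress it forms trimers and binds heat shock elements, inverted repeats of the letters GAA, in the promoters of chaperone genes. The HSP70 and HSP90 chaperones hold and refold client proteins. J proteins bring clients to HSP70 and stimulate its ATPase, and nucleotide exchange factors make it let them go. Tumour cells are known for high levels of this system.

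Described here are 10 genes of it, chosen by name: the factors HSF1 and HSF2, the HSP70 proteins HSPA1A, HSPA1B and HSPA8, the exchange factor HSPH1, the HSP90 protein HSP90AA1, the small heat shock protein HSPB1, and the co-chaperones DNAJB1 and BAG3. These names were chosen with earlier results of these data known. They were found as 10 of the 34789 gene rows of the expression table, and all 10 passed the filter for testing, which asked for 1 FPKM or more on average across all 9 samples. FPKM counts fragments per kilobase of transcript, scaled to the mapped fragments of the library, so levels of different genes can be set side by side. Each of the 10 had between 470 and 106785 recovered reads in a sample.

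The samples were H1299, a human non-small cell lung cancer line with epithelial-like form, transfected with siRNA to lower FOXN3, a forkhead transcription factor. There were 3 samples with siFOXN3-1 and 3 with siFOXN3-2, both of genotype FOXN3 knockdown, and 3 with siControl, of genotype WT. All 9 received 50 nM siRNA with Lipofectamine RNAiMAX at 30 to 50% density, so the controls carry the transfection too. For siFOXN3-2 replicate 2 the label for treatment gives siFOXN4 and for replicate 3 siFOXN5, although both titles give siFOXN3-2. The treatment labels of all 3 siFOXN3-2 samples also name a separate RNAiMAX, so siRNA sequence and reagent cannot be told apart there. H1299 is 1 line, and no label states that the replicates were grown apart, so the p-values speak of the scatter among these samples, part or all of which could be technical.

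FOXN3 itself had 1.28, 1.24 and 1.16 FPKM in siFOXN3-1 samples and 0.858, 0.958 and 1.06 FPKM in siFOXN3-2 samples, against 4.85, 5.25 and 5.00 FPKM in siControl samples. It was low in all 6 siRNA samples, the 2 with other treatment labels included. Depth was 17.0 to 19.6 M fragments a sample. Mitochondrial genes took 8.24 ± 0.891% of all FPKM in siFOXN3-1 samples, 7.99 ± 0.937% with siFOXN3-2 and 13.7 ± 0.525% with siControl (SD, n = 3 each). Epithelial KRT8 and KRT18 were high in every sample, at 84.7 to 238.9 FPKM, while KRT19, EPCAM and CDH1 were under 1 FPKM in each, and VIM was at 443 to 572 FPKM. Summed over 6 genes, immune markers had 0.301 to 0.487 FPKM in siFOXN3-1 samples, 1.73 to 2.28 FPKM in siFOXN3-2 samples and 0.632 to 1.42 FPKM in siControl samples, and PTPRC was at 0 in all siFOXN3-1 samples. Summed over 6 genes, fibroblast markers had 0.610 to 0.846 FPKM in siFOXN3-1, 2.31 to 3.72 FPKM in siFOXN3-2 and 0.986 to 1.24 FPKM in siControl samples. All 6 endothelial and 4 lung epithelial markers with a row were under 1 FPKM throughout. The part of these marker differences in the results was not tested. For the mitochondrial genes, each sample was also scaled to its FPKM sum without them. By the limma test given below, 9 of the 10 genes were then called higher and HSF1 lower with each siRNA. Of all 12707 tested genes, 2066 were then called higher and 6327 lower with siFOXN3-1, and 2567 and 5501 with siFOXN3-2.

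The letters that HSF1 is known to bind are shown first, for the member genes whose start windows hold them. RefSeq windows (GRCh38.p14) of 250 bases before and 50 after an annotated start were searched for pairs of GAA units facing each other, GAANNTTC, or facing away, TTCNNGAA. Each motif reads the same on both strands, and the pair overlaps by 3 letters in a run of 3 units. Windows were matched for 9 members, 13 windows in all, and not for HSF1. A pair was found for 6 of the 9 genes, HSPA1A, HSPA1B, HSPA8, HSP90AA1, HSPB1 and DNAJB1, against 16.2% of all 27305 genes with a window. By window, 7 of the 13 held a pair, against 13.5% of all 35116 windows. Runs of 3 units, GAANNTTCNNGAA or TTCNNGAANNTTC, lay in 2 of the 13 windows, 1 each of HSPA8 and HSP90AA1, against 0.490% of all windows. By gene, 2 of the 9 members held such a run, against 0.608% of all genes with a window. Below, each stretch upstream of a start is given in gene direction with the matched units in capitals.
HSPA1A, chr6:31815417-31815464, plus strand: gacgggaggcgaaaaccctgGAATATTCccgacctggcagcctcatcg
HSPA1B, chr6:31827613-31827660, plus strand: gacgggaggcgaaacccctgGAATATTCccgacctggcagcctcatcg
HSPA8, chr11:123062334-123062386, minus strand: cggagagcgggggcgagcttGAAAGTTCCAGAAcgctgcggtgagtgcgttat
HSPA8, chr11:123062159-123062211, minus strand: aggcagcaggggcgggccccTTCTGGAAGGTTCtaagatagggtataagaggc
HSP90AA1, chr14:102087085-102087152, minus strand: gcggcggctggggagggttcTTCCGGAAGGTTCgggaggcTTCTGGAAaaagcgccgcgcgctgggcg
HSPB1, chr7:76302471-76302518, plus strand: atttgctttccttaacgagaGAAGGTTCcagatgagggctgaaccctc
DNAJB1, chr19:14518417-14518494, minus strand: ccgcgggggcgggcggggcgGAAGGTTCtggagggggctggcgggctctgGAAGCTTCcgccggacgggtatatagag

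HSPA1A and HSPA1B carry the same 8 matched letters, and their 250 upstream bases are 93.6% identical. The match starts at base -106 from the HSPA1A start and at -105 from the HSPA1B start. HSPA8 holds a 3-unit run at each end of its upstream window, with first bases at -230 and -55. HSP90AA1 has its 3-unit run at -88 and a further pair at -68 in 1 of its 2 windows, and the other window has none. DNAJB1 has pairs at -77 and -47 in the second of its windows, and another that begins 1 base past the start in the third. No pair was found in the windows of HSF2, HSPH1 and BAG3, which says only that these letters are not in these windows. A match is a description of sequence, not a measured binding site, and which start these cells use was not measured.

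**Figure D1:**
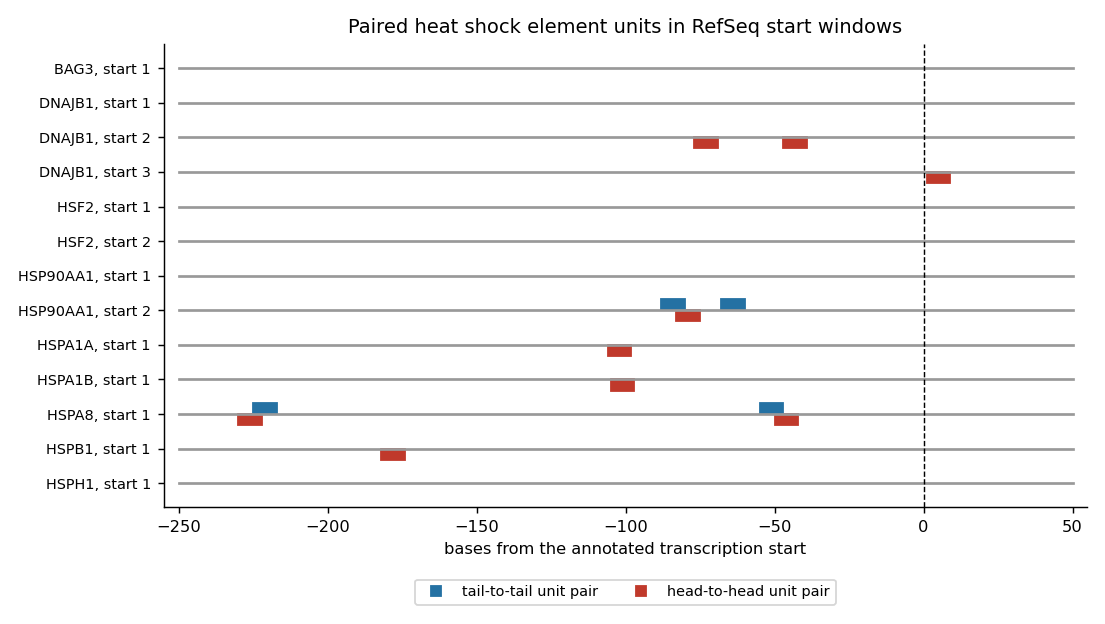
Positions of paired heat shock element units in the RefSeq start windows of 9 members. The x axis gives bases from the annotated transcription start (dashed line), each grey line is 1 window, and boxes are head-to-head (GAANNTTC) or tail-to-tail (TTCNNGAA) pairs; 7 of the 13 windows hold one.

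Against siControl, 9 of the 10 genes were higher with each FOXN3 siRNA, by 1.17 to 5.44 times with siFOXN3-1 and 1.23 to 5.06 times with siFOXN3-2 as ratios of mean FPKM. The inducible HSP70 genes HSPA1A and HSPA1B rose most, by 4.59 to 5.44 times. HSPA8, DNAJB1 and HSF2 rose by 1.64 to 2.37 times, and HSPH1, HSP90AA1, HSPB1 and BAG3 by less. HSF1 alone was lower, and with siFOXN3-1 that direction was lost after median-ratio scaling. By limma on log2(FPKM + 1), with Benjamini-Hochberg adjustment over 12707 genes and a threshold of 0.05, 9 members were called higher with siFOXN3-1, where 19.3% of all tested genes were. With siFOXN3-2 the same count of 9 was called higher, against 24.1% of tested genes. HSF1 was called lower with siFOXN3-1, as were 45.3% of tested genes, and 0 members were called lower with siFOXN3-2 by limma, where 39.2% of tested genes were. At an unadjusted p under 0.05, and by voom on recovered reads, HSF1 was called lower with siFOXN3-2 as well. For the mean of both siRNAs, 9 members were called higher and HSF1 lower, beside 22.6% and 44.9% of tested genes, but HSF1 lost that call in 4 of 24 alternative settings. The median log2 fold change of the members was 0.66 with siFOXN3-1 and 0.59 with siFOXN3-2, beside -0.17 and -0.10 for all tested genes.

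The samples of the 9 genes did not overlap with siControl for either siRNA in the higher direction, which held for 22% of tested genes with siFOXN3-1 and 26.2% with siFOXN3-2. HSF1 did not overlap in the lower direction for either, which held for 49.1% and 42% of tested genes. Over all 6 siRNA samples the shares were 17% higher and 36.4% lower, against 9 and 1 of the members. All 6 siRNA samples together against the 3 siControl samples gave, for each of the 10 genes, a two-sided exact permutation p of 0.0238, the smallest that these numbers of samples allow, while 3 against 3 cannot go below 0.1. That p follows from the lack of overlap and adds nothing to it, and it treats both siRNAs as 1 group. The balance of calls over all genes depended on scaling: with siFOXN3-1, 2458 genes were called higher and 5762 lower as deposited, but 3979 higher and 3939 lower after median-ratio scaling. With siFOXN3-2 the counts were 3066 higher and 4983 lower as deposited, and 3912 higher and 3948 lower after it. That scaling put the median over the 12707 genes, as a log2 fold change, at 0.000258 with siFOXN3-1 and -0.00357 with siFOXN3-2, in place of -0.17 and -0.10. The 9 higher members were called higher under both scalings.

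**Figure D2:**
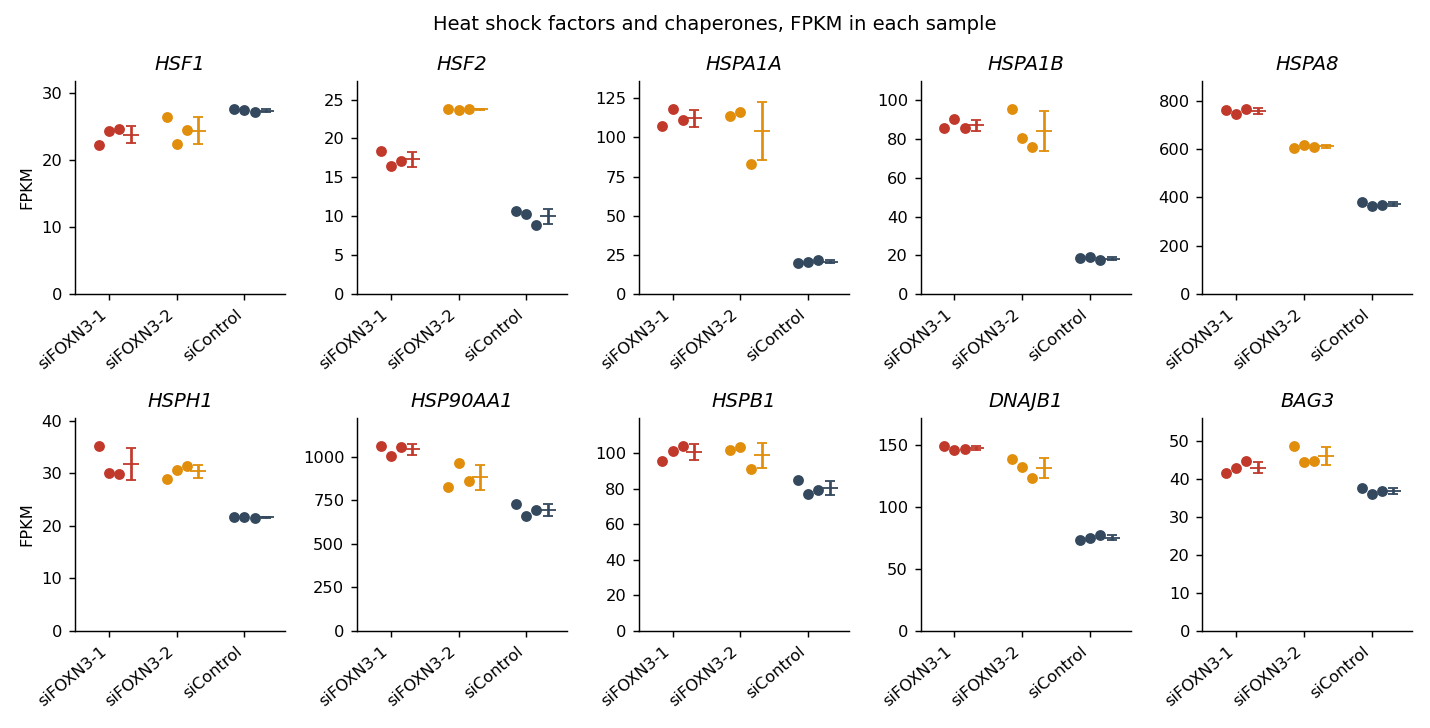
FPKM of the 10 genes in each of the 9 samples. Points are single samples of siFOXN3-1, siFOXN3-2 and siControl, bars beside them give the mean ± SD of 3, and each y axis starts at 0; only HSF1 lies below siControl in all 6 siRNA samples.

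HSF1, the main regulator (ENSG00000185122, chr8:144291591-144314722 of GRCh38 with GENCODE 29), had 22.3, 24.3 and 24.7 FPKM in siFOXN3-1 samples and 26.4, 22.4 and 24.4 FPKM in siFOXN3-2 samples, against 27.6, 27.4 and 27.1 FPKM in siControl samples. All 6 siRNA samples were below the 3 controls, the nearest being siFOXN3-2 replicate 1. The log2 fold change was -0.20 with siFOXN3-1 (SE 0.0658, limma adjusted p = 0.0225) and -0.16 with siFOXN3-2 (limma adjusted p = 0.0510), where the SE of a gene is the same for both siRNAs. Over 25 alternative settings, call and direction with siFOXN3-1 both held in 18. In 5 only the call was lost, and in 2 the direction turned and the call was lost as well. With siFOXN3-2 a call was gained in 6 of 25 and the direction turned in 0. After quantile normalization the values were -0.16 with siFOXN3-1 (limma adjusted p = 0.0513) and -0.20 with siFOXN3-2 (adjusted p = 0.0194). Single samples that ended the siFOXN3-1 call when left out were siFOXN3-1 replicate 1 (limma adjusted p = 0.0774), siControl replicate 1 (0.0609) and siControl replicate 2 (0.0541). For the mean of both siRNAs it was lost without siControl replicate 1 (limma adjusted p = 0.0558) and after median-ratio scaling (log2 fold change -0.025, adjusted p = 0.706). The values for each siRNA as deposited lie near the median of all tested genes, at percentiles 47.5 and 44.3 of their log2 fold changes, and after median-ratio scaling the values were 0.00313 (adjusted p = 0.970) and -0.05 (adjusted p = 0.487). About 2.62% of HSF1's exon length is shared with DGAT1 on the other strand, and the library kit does not mark strand.

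HSF2, a related factor that can join HSF1 in mixed trimers (ENSG00000025156, chr6:122399546-122433119), had 18.3, 16.5 and 17.1 FPKM in siFOXN3-1 samples and 23.8, 23.6 and 23.8 FPKM in siFOXN3-2 samples, against 10.7, 10.4 and 8.89 FPKM in siControl samples. The 3 groups did not overlap, and siFOXN3-2 was highest. It rose on the log2 scale by 0.74 with siFOXN3-1 (SE 0.0699, limma adjusted p = 9.21e-06) and 1.17 with siFOXN3-2 (adjusted p = 5.60e-07). The level of HSF2 relative to HSF1, as a ratio of FPKM, was 0.731 ± 0.0799 with siFOXN3-1 and 0.977 ± 0.0776 with siFOXN3-2, against 0.365 ± 0.0325 with siControl (SD, n = 3 each). With siFOXN3-2 the samples of HSF1 and HSF2 overlapped in level, while HSF2 was the lowest of the 10 genes in the other 2 groups.

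HSPA1A is the major stress-inducible HSP70, a single-exon gene (ENSG00000204389, chr6:31815464-31817946). It had 107, 118 and 111 FPKM in siFOXN3-1 samples and 113, 116 and 83.1 FPKM in siFOXN3-2 samples, against 19.9, 20.3 and 21.7 FPKM in siControl samples. All 6 siRNA samples stood far above the controls, and siFOXN3-2 replicate 3 was the lowest of them. On the log2 scale the change was 2.39 with siFOXN3-1 (SE 0.1115, limma adjusted p = 9.93e-08) and 2.27 with siFOXN3-2 (limma adjusted p = 1.77e-07), both at percentile 99.7 of all tested genes.

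HSPA1B, its neighbour on chr6:31827735-31830255 (ENSG00000204388), also a single exon, encodes nearly the same protein. It had 85.5, 90.3 and 85.6 FPKM in siFOXN3-1 samples and 95.6, 80.8 and 76.0 FPKM in siFOXN3-2 samples, against 18.4, 19.0 and 17.5 FPKM in siControl samples. Again no siRNA sample came near a control. On the log2 scale it rose by 2.19 with siFOXN3-1 (SE 0.0793, limma adjusted p = 1.85e-08) and 2.13 with siFOXN3-2 (limma adjusted p = 3.14e-08).

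How reads were split between this pair is uncertain, since their transcripts are 89.4% identical and 69.9% of 100-base windows match exactly. Their sum depends little on the split, as their exon lengths are 2483 and 2521 bases. It could still depend on how reads that map to both were handled, which is not given. It was 199 ± 8.27 FPKM in siFOXN3-1 samples and 188 ± 26.1 FPKM in siFOXN3-2 samples, against 38.9 ± 0.508 FPKM in siControl samples, and as 1 gene it had log2 fold changes of 2.33 and 2.24 (limma adjusted p = 2.51e-08 and 4.31e-08). The ratio of HSPA1A to HSPA1B was 1.29 ± 0.0284 with siFOXN3-1 and 1.24 ± 0.180 with siFOXN3-2, against 1.13 ± 0.0963 with siControl, and the siFOXN3-2 samples overlapped with the controls.

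HSPA8, the constitutive cytosolic HSP70 also called HSC70 (ENSG00000109971, chr11:123057489-123063230), had 763, 745 and 767 FPKM in siFOXN3-1 samples and 605, 618 and 610.3 FPKM in siFOXN3-2 samples, against 381, 365 and 369 FPKM in siControl samples. The 3 groups were separate, with siFOXN3-1 highest. Its log2 fold change was 1.03 with siFOXN3-1 (SE 0.0486, limma adjusted p = 1.07e-07) and 0.72 with siFOXN3-2 (limma adjusted p = 1.22e-06). Its 11 pseudogene rows together never passed 0.582% of its level. As a share of the summed FPKM of HSPA1A, HSPA1B and HSPA8, the inducible pair made up 20.8 ± 0.934% with siFOXN3-1 and 23.5 ± 2.57% with siFOXN3-2, against 9.49 ± 0.310% with siControl. Both siRNA groups were above every control in this share, and they overlapped with each other.

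HSPH1, also HSP105 or HSP110, makes HSP70 exchange its nucleotide (ENSG00000120694, chr13:31134974-31162388). It had 35.3, 30.1 and 29.96 FPKM in siFOXN3-1 samples and 28.95, 30.7 and 31.4 FPKM in siFOXN3-2 samples, against 21.7, 21.7 and 21.4 FPKM in siControl samples. The 6 siRNA samples were above the controls and mixed with each other. Log2 fold changes were 0.53 with siFOXN3-1 (SE 0.0672, limma adjusted p = 6.46e-05) and 0.47 with siFOXN3-2 (limma adjusted p = 1.60e-04).

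HSP90AA1, the stress-inducible cytosolic HSP90 (ENSG00000080824, chr14:102080738-102139699), was the most abundant of the 10 genes in every group. It had 1065, 1004 and 1058 FPKM in siFOXN3-1 samples and 824, 962 and 858 FPKM in siFOXN3-2 samples, against 731, 658 and 694 FPKM in siControl samples. The siFOXN3-1 samples were highest and the groups did not overlap. Its log2 fold change was 0.59 with siFOXN3-1 (SE 0.0712, limma adjusted p = 4.98e-05) and 0.34 with siFOXN3-2 (limma adjusted p = 0.00187). Its 5 pseudogene rows summed to at most 1.33% of its level, and 3.75% of its exon length is shared with WDR20 on the other strand. HSPA8 relative to HSP90AA1 had a ratio of FPKM of 0.728 ± 0.0124 with siFOXN3-1 and 0.696 ± 0.0473 with siFOXN3-2, against 0.536 ± 0.0166 with siControl.

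HSPB1, a small heat shock protein that holds unfolding proteins without ATP (ENSG00000106211, chr7:76302544-76304295), had 95.5, 101 and 104 FPKM in siFOXN3-1 samples and 102, 104 and 90.8 FPKM in siFOXN3-2 samples, against 84.9, 76.9 and 79.4 FPKM in siControl samples. The difference was small, but the lowest siRNA sample was above the highest control. HSPB1 rose by 0.32 on the log2 scale with siFOXN3-1 (SE 0.0662, limma adjusted p = 0.00186) and 0.29 with siFOXN3-2 (limma adjusted p = 0.00316). Scaling moved its size: with siFOXN3-1 it ranged between 0.17 and 0.53 over the alternative settings, and with siFOXN3-2 between 0.16 and 0.41.

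DNAJB1, the J protein HSP40 that works with the inducible HSP70 (ENSG00000132002, chr19:14514770-14529770), had 149.9, 147 and 147 FPKM in siFOXN3-1 samples and 139, 132 and 124 FPKM in siFOXN3-2 samples, against 73.5, 74.9 and 77.5 FPKM in siControl samples. The groups did not overlap, and siFOXN3-1 was highest. DNAJB1 rose by 0.96 on the log2 scale with siFOXN3-1 (SE 0.0545, limma adjusted p = 3.66e-07) and 0.80 with siFOXN3-2 (limma adjusted p = 1.30e-06). Set against the summed FPKM of HSPA1A, HSPA1B and HSPA8, DNAJB1 stood at 15.4 ± 0.209% with siFOXN3-1 and 16.5 ± 0.560% with siFOXN3-2, against 18.3 ± 0.749% with siControl. TECR on the other strand shares 5.75% of its exon length.

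BAG3, an exchange factor that links HSP70 to small heat shock proteins and autophagy (ENSG00000151929, chr10:119651370-119677819), had 41.6, 42.9 and 44.6 FPKM in siFOXN3-1 samples and 48.8, 44.6 and 44.6 FPKM in siFOXN3-2 samples, against 37.6, 36.0 and 36.8 FPKM in siControl samples. All siRNA samples were above the controls, by the smallest margin among the 9 higher genes with siFOXN3-1. BAG3 rose by 0.22 on the log2 scale with siFOXN3-1 (SE 0.0540, limma adjusted p = 0.00487) and 0.31 with siFOXN3-2 (limma adjusted p = 5.64e-04), and with siFOXN3-1 it was 0.42 after median-ratio scaling. Relative to the summed FPKM of HSPA1A, HSPA1B and HSPA8, BAG3 stood at 4.49 ± 0.141% with siFOXN3-1 and 5.75 ± 0.268% with siFOXN3-2, against 8.96 ± 0.0564% with siControl.

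**Figure D3:**
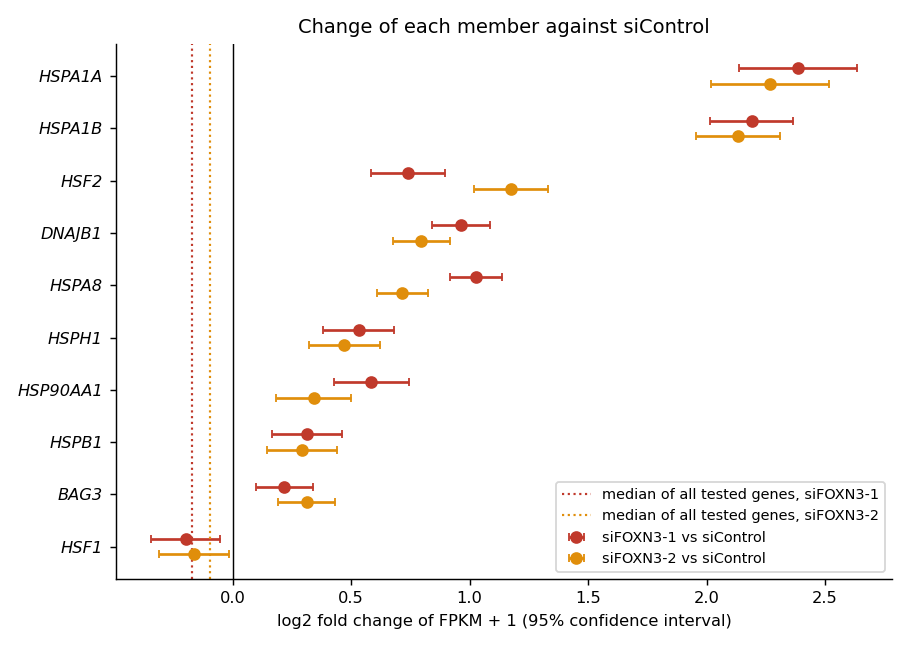
Log2 fold change of each gene against siControl on the log2(FPKM + 1) scale. Points are limma estimates for siFOXN3-1 and siFOXN3-2, bars their 95% confidence intervals, and dotted lines the medians of all tested genes at -0.17 and -0.10; HSPA1A and HSPA1B lie above 2 with both siRNAs.

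The 8 chaperones and co-chaperones together made up 0.867 ± 0.0178% of all FPKM in siFOXN3-1 samples and 0.742 ± 0.0195% with siFOXN3-2, against 0.484 ± 0.0126% with siControl (SD, n = 3 each). HSP90AA1 and HSPA8 supplied 77.5 ± 0.657%, 75.1 ± 1.83% and 80.8 ± 0.433% of that sum with siFOXN3-1, siFOXN3-2 and siControl. The order of FPKM levels also differed between groups. With siFOXN3-1 it ran HSP90AA1, HSPA8, DNAJB1, HSPA1A, HSPB1, HSPA1B, BAG3, HSPH1, HSF1 and HSF2, and no neighbours overlapped. With siFOXN3-2 the order was the same, but HSPB1 overlapped with HSPA1A and with HSPA1B, and HSF1 with HSF2. With siControl it ran HSP90AA1, HSPA8, HSPB1, DNAJB1, BAG3, HSF1, HSPH1, HSPA1A, HSPA1B and HSF2, with overlaps between HSPB1 and DNAJB1 and between HSPH1 and HSPA1A.

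The siRNAs were compared with each other to see whether the 2 differed in their effect. With siFOXN3-2 HSF2 was higher than with siFOXN3-1, and HSPA8, HSP90AA1 and DNAJB1 were lower. By limma 1 member was called higher, beside 25.4% of tested genes, and 3 lower, beside 10.7%. The same 4 genes had samples that did not overlap, as 31.8% of tested genes did in the higher and 14.2% in the lower direction. Over all genes the split between directions depended on scaling, with 3227 called higher and 1363 lower as deposited and 1942 higher and 1982 lower after median-ratio scaling. The members' median log2 difference was -0.06, against 0.08 for all tested genes.

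The log2 difference of HSF2, siFOXN3-2 over siFOXN3-1, was 0.43 (95% confidence interval 0.28 to 0.59, limma adjusted p = 0.00130), and its means were 23.7 ± 0.105 and 17.3 ± 0.944 FPKM. HSPA8 differed by -0.31 (interval -0.42 to -0.20, adjusted p = 0.00111), with means of 611 ± 6.69 and 758 ± 12.0 FPKM. Both differences were called under every alternative setting tried. HSP90AA1 differed by -0.24 (interval -0.40 to -0.09, limma adjusted p = 0.0231), with 881 ± 71.5 FPKM for siFOXN3-2 and 1042 ± 32.9 FPKM for siFOXN3-1, and lost its call in 7 of 25 alternative settings. DNAJB1 differed by -0.17 (interval -0.29 to -0.05, limma adjusted p = 0.0358), with 131.7 ± 7.86 and 147.9 ± 1.79 FPKM, and lost its call in 14 of 25. Leaving out siFOXN3-2 replicates 2 and 3, whose treatment labels differ, leaves 1 siFOXN3-2 sample, whose spread has to be assumed like that of the other groups. As values, the log2 differences were then 0.44 for HSF2, -0.33 for HSPA8, -0.34 for HSP90AA1 and -0.09 for DNAJB1.

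For the other 6 genes no difference between the siRNAs was called, which does not show that the siRNAs act alike. The interval was -0.37 to 0.13 for HSPA1A and -0.23 to 0.12 for HSPA1B. For HSPH1 it was -0.21 to 0.09, and for HSPB1 it was -0.17 to 0.12. HSF1 had an interval of -0.11 to 0.18, and BAG3 one of -0.03 to 0.21. For HSPA1A and HSPA1B these bounds are small beside their log2 fold changes over siControl, which were above 2 with each siRNA. In siFOXN3-2 replicate 1 alone, the log2 fold change over siControl was 2.40 for HSPA1A and 2.32 for HSPA1B.

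**Figure D4:**
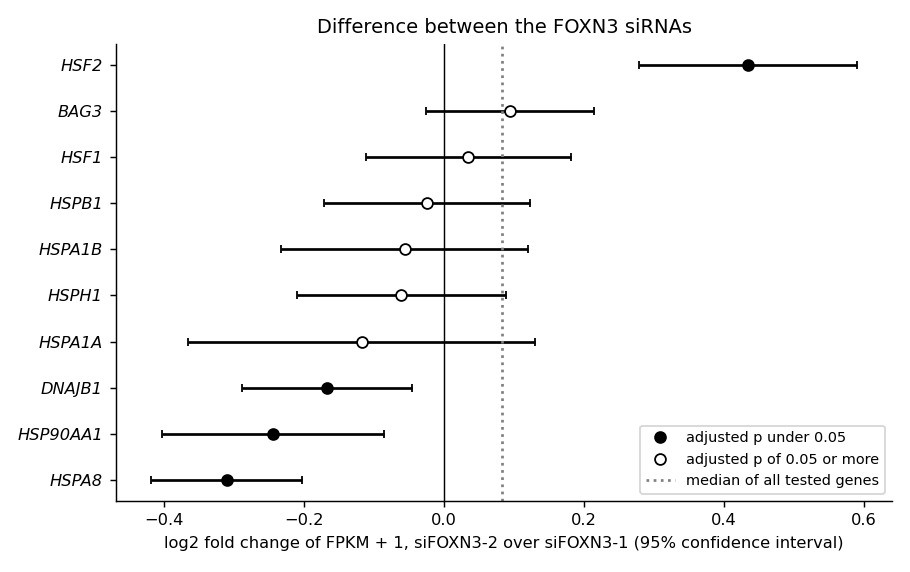
Difference between the FOXN3 siRNAs for each of the 10 genes, as log2 of siFOXN3-2 over siFOXN3-1 on the log2(FPKM + 1) scale. Points are limma estimates with 95% confidence intervals, filled where the adjusted p was under 0.05 (HSF2, HSPA8, HSP90AA1 and DNAJB1), and the dotted line is the median of all tested genes at 0.08.

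The rest of the chaperone network was read from lists of related genes, chosen with earlier results of these data known. Of 98 other genes in 8 lists, 81 passed the filter. With siFOXN3-1, 32 of the 81 were called higher and 18 lower, beside 19.3% and 45.3% of all tested genes. With siFOXN3-2, 40 were higher and 16 lower, beside 24.1% and 39.2%. Their median log2 fold change was 0.11 with siFOXN3-1 and 0.17 with siFOXN3-2, below the members' 0.66 and 0.59 and above the -0.17 and -0.10 of all tested genes. After median-ratio scaling, whose counts are given below for each list, 31.3% of all tested genes were called higher and 31% lower with siFOXN3-1, and 30.8% and 31.1% with siFOXN3-2. These shares and those as deposited are the background for each list's counts. Start windows of 27 of 84 such genes (32.1%) held paired heat shock units like those printed above, against 16.2% of all 27305 genes with a window.

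Of 7 tested HSF relatives and regulators, 3 were called higher and 1 lower with siFOXN3-1, and 3 higher and 2 lower with siFOXN3-2. After median-ratio scaling the counts were 5 and 1 with siFOXN3-1 and 4 and 1 with siFOXN3-2. SIRT1, a deacetylase that acts on HSF1, averaged 18.7 ± 1.33 FPKM in siFOXN3-1 samples and 27.95 ± 1.38 FPKM in siFOXN3-2 samples, against 11.6 ± 0.156 FPKM in siControl samples. IER5, which helps activate HSF1, rose by log2 0.21 and 0.18 (limma adjusted p = 0.0193 and 0.0429). HSBP1L1, related by sequence to an HSF-binding protein, fell with both siRNAs, to 4.34 ± 0.387 and 5.23 ± 0.429 FPKM, against 6.74 ± 0.957 FPKM in siControl samples. MAPK8, the kinase JNK1, rose with siFOXN3-2 (log2 fold change 0.26, limma adjusted p = 0.00873) and had 0.17 with siFOXN3-1 (adjusted p = 0.0574).

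Of 8 tested HSP70 paralogs, 2 were called higher and 0 lower with siFOXN3-1 by limma, and 3 higher and 1 lower with siFOXN3-2. The 0 became 1 at an unadjusted p under 0.05 and by voom on recovered reads, and after median-ratio scaling 6 were higher and 0 lower with siFOXN3-1 and 4 higher and 1 lower with siFOXN3-2. HSPA5, the HSP70 of the endoplasmic reticulum also called BiP, averaged 364.5 ± 21.7 FPKM in siFOXN3-1 samples and 375.7 ± 28.2 FPKM in siFOXN3-2 samples, against 171.5 ± 4.87 FPKM in siControl samples. Its log2 fold changes were 1.08 with siFOXN3-1 and 1.124 with siFOXN3-2 (limma adjusted p = 6.98e-07 and 6.09e-07), beside 1.03 and 0.72 for HSPA8. HYOU1, a reticulum exchange factor, and HSPA9, the mitochondrial HSP70, were called higher with siFOXN3-2, at log2 0.28 and 0.17 (limma adjusted p = 0.00180 and 0.00977), and had 0.13 and 0.03 with siFOXN3-1. HSPA13 fell with siFOXN3-2 to 14.4 ± 1.19 FPKM, against 19.6 ± 0.751 FPKM in siControl samples, and had 19.8 ± 1.58 FPKM in siFOXN3-1 samples.

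HSP90 and its co-chaperones had 6 called higher and 4 lower of 13 with siFOXN3-1, and 7 higher and 3 lower with siFOXN3-2. After median-ratio scaling 9 were higher and 2 lower with siFOXN3-1, and 8 and 2 with siFOXN3-2. CHORDC1, an HSP90-binding protein, averaged 6.79 ± 0.722 FPKM in siFOXN3-1 samples and 8.09 ± 0.853 FPKM in siFOXN3-2 samples, against 3.89 ± 0.152 FPKM in siControl samples. FKBP4, an immunophilin of steroid receptor complexes, had log2 fold changes of 0.55 and 0.47 (limma adjusted p = 5.00e-06 and 1.70e-05). PTGES3, the co-chaperone p23, had 0.45 and 0.66 (limma adjusted p = 2.14e-04 and 1.69e-05). HSP90B1, the HSP90 of the endoplasmic reticulum, had 273 ± 8.02 FPKM in siFOXN3-1 samples and 288 ± 12.5 FPKM in siFOXN3-2 samples, against 190.7 ± 7.14 FPKM in siControl samples.

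Of the 16 tested J proteins, 6 were called higher and 6 lower with siFOXN3-1, and 8 higher and 5 lower with siFOXN3-2. After median-ratio scaling the split was 10 and 3 with siFOXN3-1 and 8 and 4 with siFOXN3-2. DNAJB4, a close relative of DNAJB1, averaged 14.9 ± 0.234 FPKM in siFOXN3-1 samples and 25.4 ± 2.86 FPKM in siFOXN3-2 samples, against 6.19 ± 0.279 FPKM in siControl samples. DNAJA2 also rose, by log2 0.44 and 0.68. DNAJC9, a histone chaperone, fell to 8.38 ± 0.285 and 12.0 ± 0.486 FPKM, against 15.8 ± 0.191 FPKM in siControl samples. DNAJC5, which acts at secretory vesicles, fell to 8.96 ± 0.289 and 12.7 ± 1.14 FPKM, against 18.8 ± 0.540 FPKM in siControl samples. Genes on the other strand share 28.6% of DNAJC9's exon length, so its reads are less certain.

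Of 9 tested BAG proteins and other HSP70 partners, 0 were called higher by limma with siFOXN3-1 and 4 lower, and 1 was higher and 2 lower with siFOXN3-2. The 0 stayed at an unadjusted p under 0.05 and by voom on recovered reads, but after median-ratio scaling 3 were higher and 1 lower with siFOXN3-1, and 2 higher and 0 lower with siFOXN3-2. The directions given next for single genes are those of the FPKM as deposited. STUB1, the ubiquitin ligase CHIP, averaged 18.7 ± 4.64 FPKM in siFOXN3-1 samples and 23.0 ± 1.71 FPKM in siFOXN3-2 samples, against 31.0 ± 2.51 FPKM in siControl samples, but 42.4% of its exon length lies opposite JMJD8. HSPBP1, an HSP70 exchange factor, fell by 0.35 and 0.26 on the log2 scale (limma adjusted p = 0.00290 and 0.0156). BAG5 fell by 0.27 with siFOXN3-1 (limma adjusted p = 0.0274) and had -0.23 with siFOXN3-2 (adjusted p = 0.0580). BAG4 was called higher with siFOXN3-2, at 9.95 ± 0.483 FPKM, against 6.10 ± 0.185 FPKM in siControl samples, and had 6.55 ± 0.841 FPKM in siFOXN3-1 samples.

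Chaperonins and prefoldin, which fold actin and tubulin or act in mitochondria, had 9 called higher of 16 with siFOXN3-1 and 10 with siFOXN3-2, and 0 lower by limma with either. None of the 16 was lower at an unadjusted p under 0.05 or by voom on recovered reads, and after median-ratio scaling 16 were higher with siFOXN3-1 and 15 with siFOXN3-2. PFDN2, a prefoldin subunit, averaged 112 ± 15.5 FPKM in siFOXN3-1 samples and 112 ± 9.29 FPKM in siFOXN3-2 samples, against 64.8 ± 1.56 FPKM in siControl samples. CCT8 and CCT2, subunits of the cytosolic chaperonin, had log2 fold changes of 0.33 and 0.34 with siFOXN3-1 and 0.69 and 0.33 with siFOXN3-2. HSPE1, the mitochondrial HSP10, had 27.0 ± 2.93 FPKM in siFOXN3-1 samples and 30.8 ± 4.43 FPKM in siFOXN3-2 samples, against 17.3 ± 2.54 FPKM in siControl samples. Its reads are less certain, as 14.2% of its exon length is shared with HSPD1 on the other strand. HSPD1 averaged 228, 244 and 195 FPKM with siFOXN3-1, siFOXN3-2 and siControl. A further 9.71% is shared with HSPE1-MOB4 on the same strand.

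Other genes known to be heat-inducible had 6 called higher and 3 lower of 12 with siFOXN3-1, and 8 higher and 3 lower with siFOXN3-2. The 3 lower genes were SERPINH1, UBB and CLU with each siRNA. Their log2 fold changes were -0.45, -0.40 and -0.56 with siFOXN3-1, and -0.22, -0.31 and -0.30 with siFOXN3-2. After median-ratio scaling 8 were higher and 2 lower with siFOXN3-1, and 9 and 1 with siFOXN3-2. RGS2, a regulator of G protein signalling, averaged 5.87 ± 0.384 FPKM in siFOXN3-1 samples and 9.64 ± 0.794 FPKM in siFOXN3-2 samples, against 1.62 ± 0.159 FPKM in siControl samples. P4HA1, a collagen prolyl hydroxylase subunit, had 77.0 ± 6.34 FPKM in siFOXN3-1 samples and 75.4 ± 2.98 FPKM in siFOXN3-2 samples, against 32.1 ± 0.818 FPKM in siControl samples. JMJD6 rose by log2 0.89 and 1.14, and SQSTM1, the autophagy receptor p62, by 0.81 and 0.53, all 4 called by limma. Of these, SQSTM1 shares 22.0% of its exon length with genes on the other strand.

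**Figure D5:**
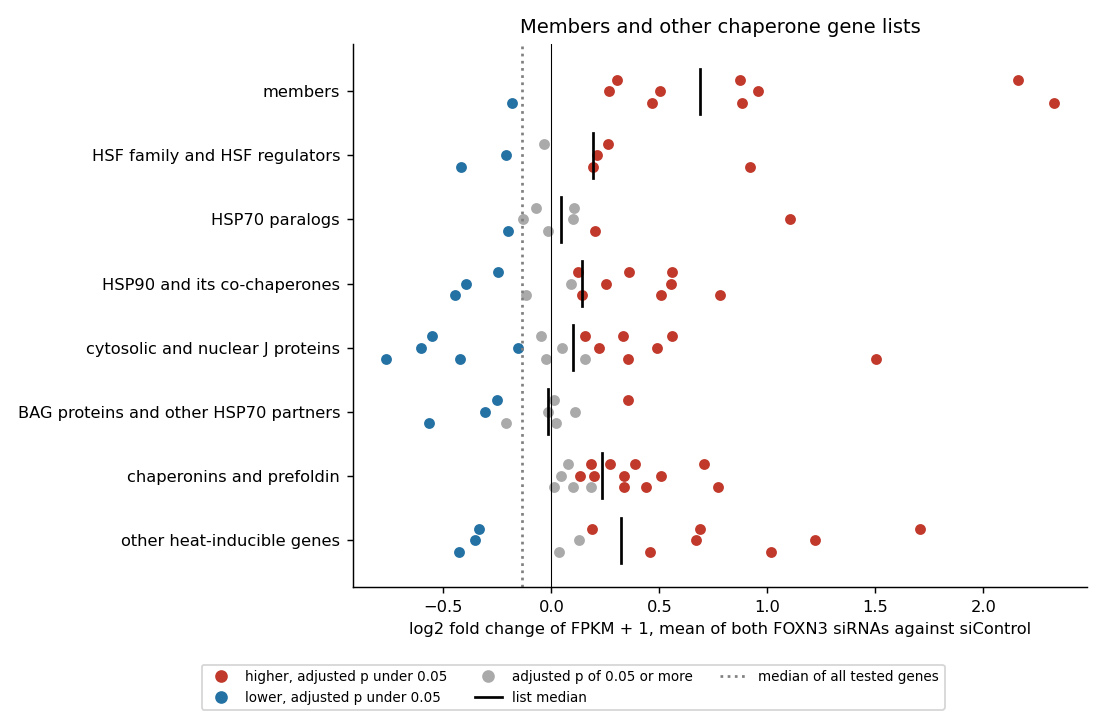
Log2 fold change on the log2(FPKM + 1) scale, mean of both FOXN3 siRNAs against siControl, for the 10 members and the tested genes of 7 other chaperone lists. Each point is 1 gene, coloured by its limma call, black bars are list medians (members 0.69), and the dotted line is the median of all tested genes at -0.14; the small heat shock protein list had no tested gene.

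Below the filter, the HSP70 paralogs HSPA6 and HSPA1L moved in opposite directions. HSPA6, a strictly inducible human HSP70 named after its values were seen, had 0.794, 1.16 and 0.602 FPKM in siFOXN3-1 samples and 1.24, 1.19 and 0.397 FPKM in siFOXN3-2 samples, against 0.158, 0.242 and 0.108 FPKM in siControl samples. No siRNA sample overlapped with a control, although the level stayed near 1 FPKM. Tested with no filter, its log2 fold change was 0.65 with siFOXN3-1 and 0.70 with siFOXN3-2 (limma adjusted p = 0.0359 and 0.0279). HSPA1L, the HSP70 gene beside HSPA1A on the opposite strand, went down: 0.411, 0.259 and 0.224 FPKM in siFOXN3-1 samples and 0.0924, 0.320 and 0.0652 FPKM in siFOXN3-2 samples, against 1.39, 1.37 and 1.18 FPKM in siControl samples. Neither siRNA group overlapped with siControl, while the siRNA groups overlapped with each other. With no filter its log2 fold changes were -0.836 and -1.004 (limma adjusted p = 5.81e-04 and 2.46e-04).

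The genes closest in pattern were sought for HSPA1A, HSPA1B and HSF2, the 3 members with the largest log2 fold change for the mean of both siRNAs, as those with the smallest root mean square distance over the 9 samples of log2(FPKM + 1) centred on siControl. For HSPA1A these were OSGIN1 at 0.103, JUNB at 0.124 and ATF3 at 0.126, while HSPA1B stood at 0.177. For HSPA1B they were ATF3 at 0.106, JUNB at 0.123 and ERRFI1 at 0.126. ATF3, a stress-induced transcription factor, averaged 11.6 ± 0.484 FPKM in siFOXN3-1 samples and 10.3 ± 1.13 FPKM in siFOXN3-2 samples, against 1.46 ± 0.151 FPKM in siControl samples. For HSF2 they were SCML1 at 0.0819, SIRT1 at 0.0874 and EIF4A2 at 0.0888. EIF4A2, a translation initiation helicase, averaged 105 ± 2.37 FPKM in siFOXN3-1 samples and 132.7 ± 9.35 FPKM in siFOXN3-2 samples, against 61.4 ± 1.65 FPKM in siControl samples. These distances describe 9 samples and carry no test.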

How the data were processed

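Polyadenylated RNA of 9 H1299 samples was sequenced, 3 for each of siFOXN3-1, siFOXN3-2 and siControl, grouped by their titles. TRIzol extraction and an NEBNext Ultra kit, which does not mark strand, are given per the labels' protocols. The FPKM deposited by the authors were used unchanged. The submitters' processing notes name GRCh38 and the tools StringTie 1.3.3b, HISAT2 2.1.0 and fastp 0.14.0. For the annotation release, the filters and the handling of reads that map to several places, which matters for HSPA1A and HSPA1B, the answer is not given in the sources used here.

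Symbols were matched for 34730 of 34789 Ensembl genes. Steps in low FPKM gave each sample's depth, 17.0 to 19.6 M fragments. Within 0.05, whole reads came out for 98.2 to 98.3% of values of 1 to 50 reads. The 12707 genes that averaged 1 FPKM or more were tested with limma 3.58.1 in R 4.3.3 (eBayes with trend, log2(FPKM + 1), 1 fit of 3 groups, two-sided), with Benjamini-Hochberg adjustment and a threshold of 0.05. Fold changes on this scale understate those of low genes. The fit was tested on simulated data. Alternatives changed the pseudocount, filter, scaling, moderation, samples and replicate block, and summed HSPA1A and HSPA1B. Fits by voom on recovered reads were added after seeing the data.

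The members and lists were chosen with earlier results of these data known, and both comparisons with siControl share its 3 samples. Genes named from each list are the 4 with the smallest adjusted p over both siRNAs. HSPA6, HSPA1L, HSPB6, CRYAB, HSF5, SERPINH1, UBB and CLU were named after their values were seen.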

Additional observations from a re-analysis of the deposited data

Results flagged for a closer look

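Between the FOXN3 siRNAs, 4 of the 10 genes had effects that differed by the limma test of the difference itself, 1 higher and 3 lower, beside 25.4% and 10.7% of all tested genes. As log2 of siFOXN3-2 over siFOXN3-1, HSF2 differed by 0.43, HSPA8 by -0.31, HSP90AA1 by -0.24 and DNAJB1 by -0.17. HSP90AA1 lost its call in 7 of 25 alternative settings and DNAJB1 in 14. HSF2 was higher with siFOXN3-2 in 3 of 3 samples, and the other three were lower in 3 of 3. Groups of 3 samples are too small for a single far sample to be tested.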

How the results depend on the processing

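All 9 higher members kept direction and call against siControl in 223 alternative values for siFOXN3-1 and 223 for siFOXN3-2. HSF1 did not: with siFOXN3-1 its log2 fold change was 0.00313 after median-ratio scaling and 0.00265 by voom with it. Between the siRNAs, HSF1 turned to -0.057, -0.042 and -0.059 under median-ratio scaling, quantile normalization and voom with median-ratio scaling.

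Members called between the siRNAs fell to 2 with no filter, with only the groups compared, or with the replicate block, against 4. With 1 sample left out they fell to 2 to 3. Calls over all genes fell too, from 4590 to 3476, 3741 and 3465 in the first 3 settings, and to 3315 to 4307 with 1 sample left out. The fall is therefore not particular to the members. Leaving out 1 sample moved the log2 difference over -0.022 to 0.093 for HSF1, -0.20 to 0.036 for HSPA1A, -0.15 to 0.012 for HSPA1B, -0.060 to 0.035 for HSPB1 and -0.10 to 0.014 for HSPH1. Without siFOXN3-2 replicates 2 and 3 together, where the lone siFOXN3-2 sample is assumed to vary like the other groups, HSPA1A stood at 0.018, HSPA1B at 0.13 and HSPB1 at 0.022, and 2706 genes were called between the siRNAs. With a mean of at least 5 FPKM, 4708, 4716 and 4905 genes were called for siFOXN3-1, siFOXN3-2 and both.

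Replicate numbers are not stated to pair the samples. Deviations from the group means correlated at -0.28 to 0.05 for the same number, against -0.16 to 0.27 for other numbers. Deviations of 3 samples from their own mean are tied to each other, so these values cannot show whether samples were paired. With the replicate block, 7668 genes were called for siFOXN3-1, 7422 for siFOXN3-2 and 3465 between them, and HSF1 had adjusted p = 0.0536 by limma with siFOXN3-1.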

Other observations

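Small heat shock proteins other than HSPB1 were all below the filter, and none of the 8 listed reached 2 FPKM in a sample. HSPB6, named after its values were seen, had 0.365, 0.319 and 0.431 FPKM in siFOXN3-1 samples and 0.786, 0.220 and 0.321 FPKM in siFOXN3-2 samples, against 1.59, 0.999 and 1.01 FPKM in siControl samples, so its direction was opposite to that of HSPB1. CRYAB, the alpha-crystallin known to pair with HSPB1, stayed at or under 0.0517 FPKM in every sample. Of the HSF family, HSF5 was listed at 0 in 8 of 9 samples.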
